A study of Mus musculus with 32 samples.

Results

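The 10 genes described here encode secreted proteins of mucosal surfaces and glands: the lactoferrin gene Ltf, the scavenger receptor gene Dmbt1, the C-type lectin gene Reg3g, the secretoglobin gene Scgb1c1, the gel-forming mucin gene Muc5b, and the BPI-fold genes Bpifa1, Bpifb1, Bpifb3, Bpifb4 and Bpifb5. They were taken by symbol from a table of 49671 genes, of which 44957 had a read in at least 1 library. Bpifb5, with at most 5 reads in any library, did not pass the filter on low counts, which left 9 of the 10 genes among the 18382 genes tested. The tissue was the sensory epithelium of the vomeronasal organ (VNO), the organ with which mice detect pheromones. RNA came from 32 individual mice aged 42 days, for which the labels name no treatment. The 4 inbred strains were 129S6/SVEV (129), C57/BL6 (B6), SJL/J (SJL) and SWR/J (SWR), each with 4 females and 4 males, so that a strain holds 8 mice and a sex 16.

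Secretions of the nasal and vomeronasal mucosa coat the sensory surface, trap particles and limit microbial growth. Lactoferrin withholds iron from bacteria, DMBT1 binds and clumps bacteria, and REG3G is a lectin that acts on Gram-positive bacteria. Polymeric mucins form the gel itself, while BPI-fold proteins are lipid-binding secreted proteins of the upper airway and secretoglobins are small secreted proteins of airway and gland epithelia. Much of this output comes from seromucous glands and from non-sensory epithelium that lie next to the neuroepithelium, so that in bulk RNA from a dissected organ fewer cells of a type and less RNA per cell cannot be told apart.

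Libraries held between 5106398 and 18640871 counted reads, with a median of 11461344. Markers of mature vomeronasal neurons were abundant, and the olfactory marker gene Omp reached between 14489 and 23292 normalized counts in all 32 libraries. Of 15 markers of seromucous glands, 12 had a read in every library. B6 female replicate 1 and 129 male replicate 1 stood apart for several of the genes described here, and the tests and correlations are given with and without them where a call changed. Replicate numbers were taken from the library descriptions and are read here as the sequencing lane, which no label states; each number occurs once in each sex and strain.

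Promoter sequences were available from RefSeq (GRCm38.p6) for 8 of the 10 genes. The 250 bases before the start site are shown for genes on which the results below turn: Ltf, Reg3g and Scgb1c1, which rose and fell together from mouse to mouse; Bpifa1, which moved with a different group of genes; and Bpifb4, which had no read in 129. They lie at chr9:111019042-111019291 (plus strand), chr6:78468875-78469124 (minus strand), chr7:140845315-140845564 (plus), chr2:154142630-154142879 (plus) and chr2:153940612-153940861 (plus). Start sites are those of RefSeq. The window of Bpifb4 lies inside its gene span in the GENCODE M21 annotation (chr2:153938212-153964101) and is not upstream of that span. The windows of Ltf and Scgb1c1 overlap the first bases of their spans. Capitals mark matches to a TATA motif (TATAAA) or an ETS motif (AGGAAG), read on both strands.
Ltf: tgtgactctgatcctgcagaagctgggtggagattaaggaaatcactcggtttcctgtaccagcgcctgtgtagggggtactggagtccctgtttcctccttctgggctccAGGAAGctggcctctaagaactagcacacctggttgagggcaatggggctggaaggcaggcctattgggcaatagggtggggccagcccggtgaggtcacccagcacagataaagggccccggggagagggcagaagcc
Reg3g: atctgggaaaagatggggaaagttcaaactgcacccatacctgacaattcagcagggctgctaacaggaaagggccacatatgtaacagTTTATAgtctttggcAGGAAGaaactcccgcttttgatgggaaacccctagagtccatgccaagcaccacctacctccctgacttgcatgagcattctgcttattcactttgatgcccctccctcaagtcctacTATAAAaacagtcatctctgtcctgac
Scgb1c1: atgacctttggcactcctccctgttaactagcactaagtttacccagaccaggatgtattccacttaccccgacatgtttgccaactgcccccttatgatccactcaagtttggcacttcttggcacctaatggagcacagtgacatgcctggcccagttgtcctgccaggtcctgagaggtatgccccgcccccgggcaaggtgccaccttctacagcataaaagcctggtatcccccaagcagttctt
Bpifa1: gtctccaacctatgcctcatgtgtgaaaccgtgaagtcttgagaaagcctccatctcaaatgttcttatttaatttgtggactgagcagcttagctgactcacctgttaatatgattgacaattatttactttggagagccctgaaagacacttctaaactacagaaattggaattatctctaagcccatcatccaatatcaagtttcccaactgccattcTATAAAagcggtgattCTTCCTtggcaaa
Bpifb4: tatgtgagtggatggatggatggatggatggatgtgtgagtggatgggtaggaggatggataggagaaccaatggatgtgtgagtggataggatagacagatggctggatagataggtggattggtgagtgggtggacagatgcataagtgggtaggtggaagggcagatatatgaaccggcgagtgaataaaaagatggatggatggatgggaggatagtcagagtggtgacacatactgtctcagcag

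The TATA motif was found at position -29 in Bpifa1 and at positions -27 and -161 in Reg3g, counted to the first base of the match with -1 as the base just before the start. The ETS motif was found at -13 in Bpifa1, -139 in Ltf and -146 in Reg3g. Neither motif was in the windows of Scgb1c1 and Bpifb4, and the last of these consists largely of short repeats. No match overlapped another. Among all 32851 promoter windows of the same length, 12.4% held the TATA motif and 29.5% the ETS motif. A match is given as a description, not as a binding site.

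The level of these genes spanned more than 3 orders of magnitude. On the TPM scale, which corrects for transcript length and library size, Ltf had a median of 397 over the 32 mice and Dmbt1 294, followed by Reg3g at 74.8, Bpifa1 at 26.3 and Scgb1c1 at 16.7. Muc5b reached 0.647, and the remaining BPI-fold genes were lower still: Bpifb1 0.346, Bpifb4 0.232, Bpifb3 0.179 and Bpifb5 0.142 TPM. By median normalized count, Dmbt1 ranked 63rd and Ltf 113th among the 44957 genes with a read. Dmbt1, Ltf and Reg3g together took a median of 0.151% of a library's reads, with a range from 0.0559% to 1.43%.

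All 10 genes differed more between mice of the same strain than most genes did, a spread that holds counting error in the genes with few reads. Their within-strain SD, on the log2(normalized count + 1) scale, lay between 0.83 for Bpifb4 and 1.52 for Reg3g, against a median of 0.19 for the genes tested, and each of the 10 stood at or above the 96.8th percentile. Strain accounted for 4.69% (Muc5b) to 26.3% (Bpifb3) of the variance in all of them except Bpifb4, where it accounted for 67.2%. The median over genes tested was 42.5%. The share is not corrected for the number of strains, so it tends to lie above 0 even without any strain effect.

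**Figure D1:**
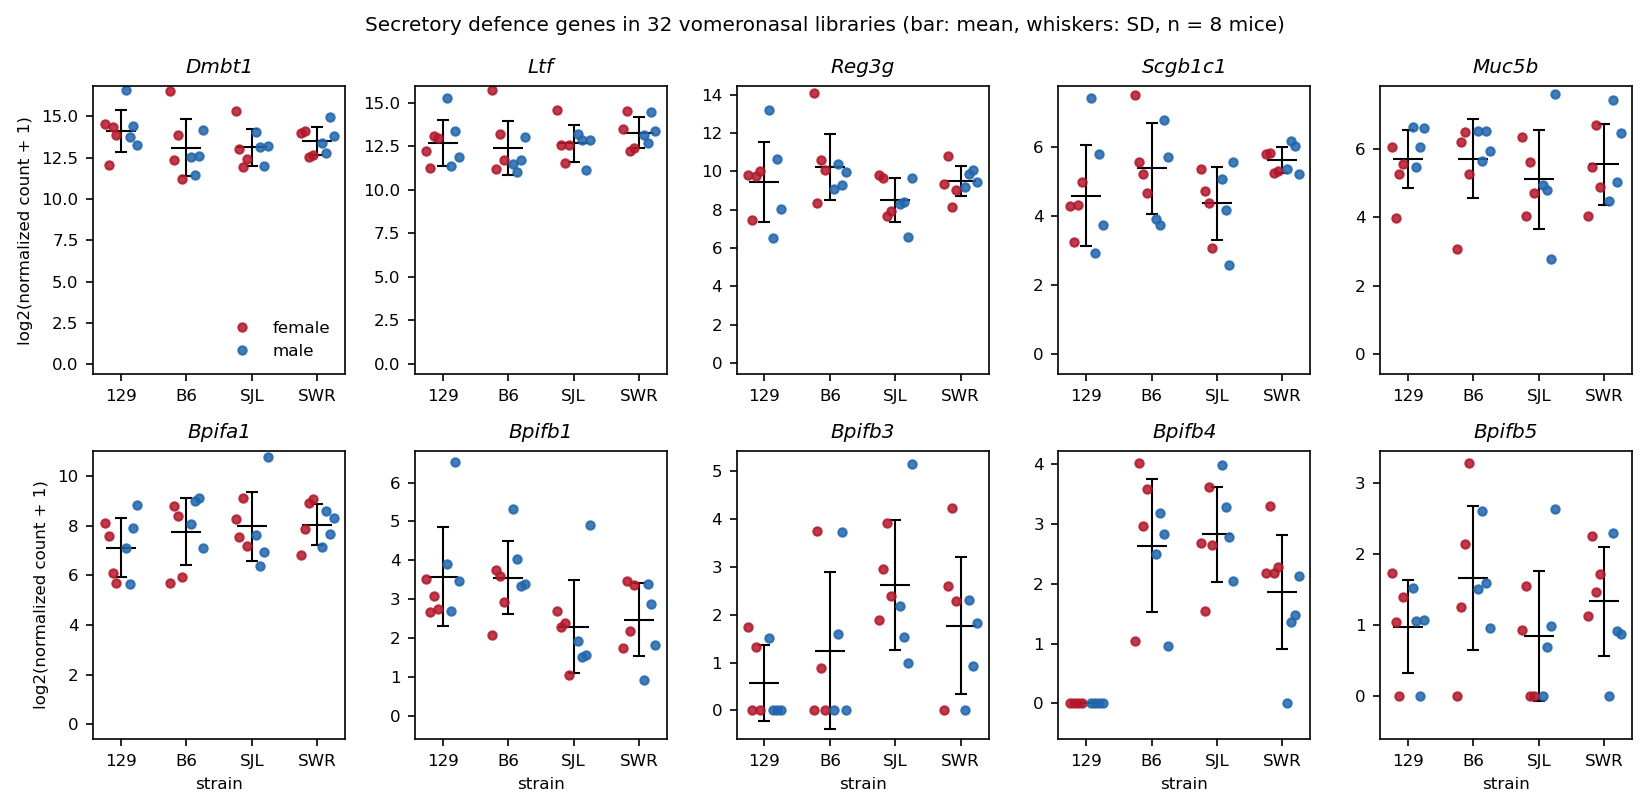
Level of each gene in every library by strain, as log2(normalized count + 1), with females in red and males in blue; horizontal bars are means and whiskers SD over 8 mice. Dmbt1, Ltf, Reg3g and Scgb1c1 each have 1 high library in 129 and 1 in B6, and Bpifb4 lies at 0 in all 8 mice of 129.

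Dmbt1 (chr7:131032053-131121630), whose product binds bacteria in saliva and mucus, was the most abundant of the group by read count. Its lowest, median and highest normalized counts were 4290, 18028 and 97609 in 129. They were 2363, 6102 and 95640 in B6. SJL ranged from 3853 through a median of 8604 to 40693, and SWR from 5923 through 12578 to 31698. All 4 strains overlapped, and the highest mouse had 41.3 times the level of the lowest.

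Ltf (chr9:111019271-111042767), the iron-binding lactoferrin gene, spanned 2459 to 39159 normalized counts in 129 with a median of 6476, and in B6 2107 to 53986 with a median of 3346. In SJL the range was 2214 to 24461 around a median of 6742. In SWR, where the median was highest, it was 4755 to 23838 around 9770. Ranges of all strains overlapped, and neither Ltf nor Dmbt1 passed the test between any pair of strains.

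Reg3g (chr6:78466269-78468872), an antibacterial lectin gene, had the widest range of the 10, from 91.8 to 17464 normalized counts, which is 190-fold. The lowest, median and highest values were 91.8, 885 and 9468 in 129 and 330, 1034 and 17464 in B6. In SJL they were 95.5, 321 and 897, and in SWR 286, 680 and 1778. SJL thus had the lowest median, although every strain's range overlapped that of every other.

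Scgb1c1 (chr7:140845547-140846769), a small secretoglobin gene of olfactory and respiratory mucosa, spanned 6.56 to 171 normalized counts in 129, with a median of 18.7. B6 spanned 12.2 to 182 with a median of 40.8, and SJL 4.92 to 45.9 with a median of 22.5. SWR mice were closest to each other, from 36.4 to 70.6 around a median of 47.2, and their range too overlapped those of the other strains.

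The high ends of these ranges belonged largely to the same mice. B6 female replicate 1 was the highest of 32 libraries for Reg3g, Ltf and Dmbt1 relative to its strain mean, and 129 male replicate 1 the second highest. In the first library Reg3g was 16.9 times, Ltf 16.1 times, Dmbt1 15.7 times and Scgb1c1 4.47 times the median of B6. In the second, Reg3g was 10.7 times, Scgb1c1 9.17 times, Ltf 6.05 times and Dmbt1 5.41 times the median of 129. In B6 female replicate 1 Muc5b was 0.112 times, Bpifa1 0.172 times and Bpifb1 0.310 times the strain median, while in 129 male replicate 1 Muc5b was 1.77 times, Bpifb5 1.70 times, Bpifb1 1.61 times and Bpifa1 0.836 times that of 129.

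Markers of other cells moved in these libraries too. Summed over 8 markers of ciliated respiratory cells, B6 female replicate 1 had 5536 and 129 male replicate 1 7693 normalized counts, the highest of their strains, whose medians were 2608 and 3352; the other strains spanned 1876 to 2789 in SJL and 2193 to 2520 in SWR. In each library 7 of 8 markers lay above the strain median, and none was at 0. Foxj1, the master regulator of motile cilia, stood at 516 and 606 against a median of 38.3 over all mice. Of the 15 gland markers, 9 in the first and 11 in the second library lay above the strain median, while 3 and 2 were at 0. Those above held the prolactin-inducible protein gene Pip (1285 and 2114, median over all mice 54.4) and the water channel gene Aqp5 (453 and 621, median 51.7). In the second library Slc12a2 was the lowest of all mice (7739, median 9192). Krt18 (4372, median 5136) and Krt8 (5646, median 6068) were also below the median over all mice there. In the first library these genes lay above it. Summed gland markers ranged from 19056 to 23036 in 129, 22887 to 28242 in B6, 26236 to 29540 in SWR and 18433 to 20796 in SJL. Summed sustentacular markers were highest of their strains in both libraries, at 22146 (median of B6 14835) and 22392 (median of 129 16596), with 3 and 5 of 6 markers above the strain median. Of 7 macrophage markers 6 and 7 lay above it, although the sum was 1647 against a median of 1641 in B6 and 841 against 613 in 129. Summed red blood cell markers were lowest of B6 in the first library, at 152, and highest of 129 in the second, at 591 against a median of 161. Summed markers of mature vomeronasal neurons were 37892 in the first library (median of B6 38936.5). They were 39820 in the second, the lowest of 129 (median 45401). Of 9 such markers, 5 and 1 lay above the strain median. Markers of main olfactory neurons summed to 11250 (median of B6 11685.2) and 12386, also the lowest of 129 (median 14333). Of these 7 markers, 3 and 0 lay above the strain median. The part of all these cells in the levels of the secretory genes was not tested.

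Ltf is also a granule gene of neutrophils. Of 10 neutrophil markers, 5 lay above the strain median in B6 female replicate 1 and 6 in 129 male replicate 1, and 5 and 4 were at 0. The granule genes Ngp, Elane and Mpo had no read in either library and Camp at most 0.936 normalized counts. The chemokine receptor gene Cxcr2 stood at 74.6 and 47.7 against a median of 21.6 over all mice, and Retnlg at 8.53 and 0.936 against 0.960. S100a8 and S100a9 reached 117 and 180 in the first library, and 24.3 and 63.6 in the second, against medians of 18 and 28. Summed neutrophil markers spanned 13.1 to 139 in 129, 56.8 to 384 in B6, 35.5 to 92.6 in SWR and 55.1 to 134 in SJL, and the sums of both libraries, 384 and 139, were the highest of their strains. The part of neutrophils in the level of Ltf was not tested.

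**Figure D2:**
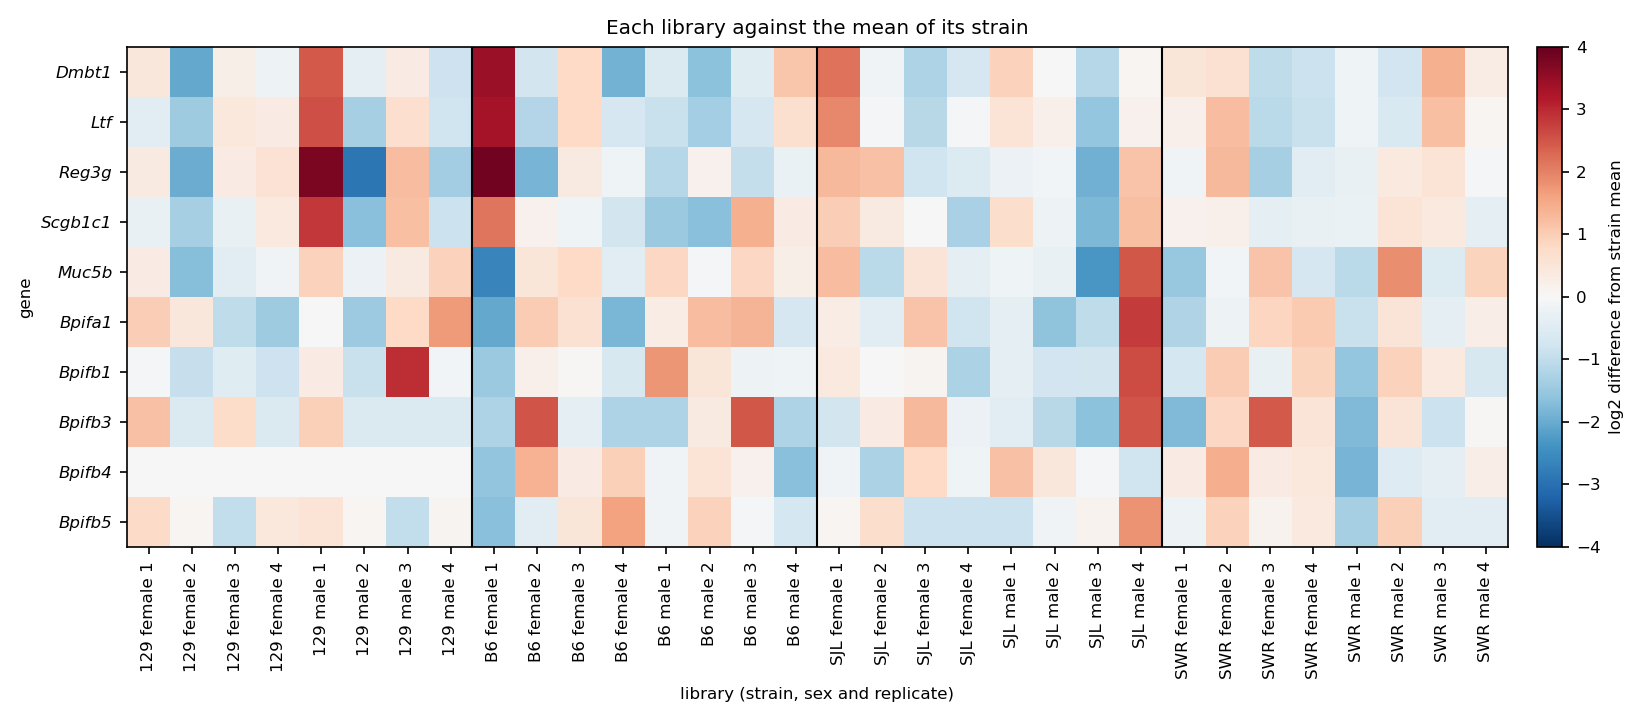
Difference of each library (columns, grouped by strain) from the mean of its strain for each gene (rows), on the log2(normalized count + 1) scale, with red above and blue below the mean. B6 female 1 and 129 male 1 are red for Dmbt1, Ltf, Reg3g and Scgb1c1, and SJL male 4 is red for Muc5b, Bpifa1, Bpifb1, Bpifb3 and Bpifb5.

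The genes fell into groups that rose and fell together within strains. Pearson's r was computed on log2(normalized count + 1) after subtracting each strain's mean, with p-values from 100000 shuffles of libraries within strains, two-sided, and adjusted by Benjamini-Hochberg over all 165429 relations of a tested member with a tested gene. Of the 36 pairs of members, 9 had an adjusted p under 0.05, all 9 with positive r. Over all relations, 3454 of 165429 did. Without both libraries that stood apart, 6 pairs reached the same unadjusted p. When p-values were adjusted anew over the 30 remaining libraries, an alternative added after seeing the data, 203 relations and 2 pairs passed: Dmbt1 with Ltf (r = 0.875, adjusted permutation p = 0.0162) and Reg3g with Ltf (r = 0.752, adjusted permutation p = 0.0247). The other 7 pairs had r between 0.534 and 0.663 without them.

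Dmbt1, Ltf, Reg3g and Scgb1c1 formed the tighter group, in which all 6 pairs passed over the 32 libraries. Dmbt1 and Ltf were closest, with r = 0.932 and rho = 0.905 over 32 mice. Both had a permutation p of 1e-05, the smallest the shuffles can give, with adjusted p of 0.00374 for r and 0.00745 for rho. Within single strains r lay between 0.889 (129) and 0.953 (SJL), and leaving out the 2 mice farthest from the median gave 0.875.

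Reg3g followed Ltf with r = 0.872 and rho = 0.813 (permutation p = 1e-05 for each, adjusted 0.00374 and 0.00745), and r was 0.752 without the 2 farthest mice. Scgb1c1 followed Reg3g with r = 0.771 and rho = 0.687 (permutation p = 1e-05 and 5e-05, adjusted 0.00783 and 0.0197; r = 0.695 without the farthest mice). The other pairs of this group had r of 0.756 (Scgb1c1 and Ltf), 0.749 (Dmbt1 and Reg3g) and 0.721 (Scgb1c1 and Dmbt1). For Dmbt1 and Reg3g, r was 0.534 without the 2 farthest mice, and for Scgb1c1 and Dmbt1 it was 0.643. Without both libraries that stood apart, Scgb1c1 had r of 0.598 with Reg3g, 0.598 with Ltf and 0.554 with Dmbt1. The adjusted permutation p was then 0.246, 0.214 and 0.324.

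The second group centred on Bpifa1, a secreted surfactant-like protein gene of the upper airway. Bpifa1 went with Bpifb3 (r = 0.669, rho = 0.666, permutation p = 9e-05 and 0.00012, adjusted 0.0129 and 0.0322), although r was 0.0498 within 129, where Bpifb3 had 6 reads in all. It went with Muc5b (r = 0.668, rho = 0.636, permutation p = 1e-04 and 2e-04, adjusted 0.0137 and 0.0429) and with Bpifb1 (r = 0.633, rho = 0.641, permutation p = 8e-05 for each, adjusted 0.024 and 0.0258). Without the 2 mice farthest from the median these r values were 0.602, 0.599 and 0.504. Bpifb1 with Muc5b (r = 0.581, adjusted permutation p = 0.0527) and Bpifb3 with Muc5b (r = 0.57, adjusted permutation p = 0.0637) missed the threshold.

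Between both groups no pair passed over 32 mice, and r lay between -0.30 (Bpifa1 and Ltf) and 0.264 (Bpifb3 and Scgb1c1). Bpifb4 passed with no other member, with r from -0.34 with Dmbt1 to 0.316 with Bpifb3. The 100000 shuffles put the remaining pairs at adjusted p-values of 0.317 or more. Leaving out both libraries that stood apart moved the lowest r between groups to -0.203 (Bpifb3 and Ltf). The highest was then 0.459 (Muc5b and Scgb1c1), followed by 0.457 (Bpifb1 and Reg3g), and again no pair between groups passed. Single strains could differ in sign: for Muc5b and Reg3g, B6 had r of -0.892, SWR -0.068, 129 0.525 and SJL 0.649. Values of a library's total reads were not closely related to any member, with r from -0.28 to 0.292 over 32 mice.

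**Figure D3:**
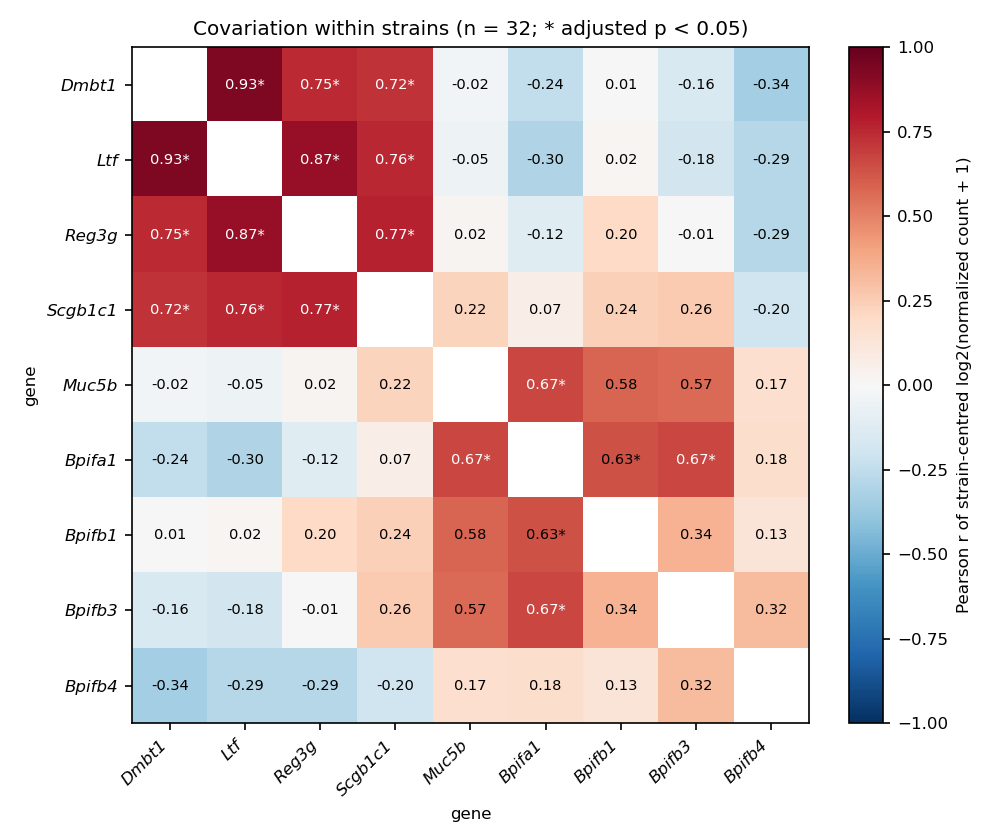
Pearson's r between each pair of the 9 tested genes over 32 mice after centring by strain, from blue (-1) to red (1); asterisks mark an adjusted permutation p under 0.05. Dmbt1, Ltf, Reg3g and Scgb1c1 form a block with r of 0.721 to 0.932, and Bpifa1 has asterisks with Muc5b, Bpifb1 and Bpifb3.

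The genes most like each member differed between the groups. For Dmbt1 they were Lcn3 (r = 0.992), Wfdc18 (r = 0.987) and Obp2a (r = 0.982), the first and last of which encode lipocalins secreted by nasal glands. For Ltf they were the organic anion transporter gene Slco1a5 (r = 0.972), Wfdc18 (r = 0.957) and BC048546 (r = 0.948). All of these have a permutation p of 1e-05 and an adjusted p of 0.00374. Without both libraries that stood apart r was 0.986, 0.978 and 0.970 for the genes listed with Dmbt1 and 0.945, 0.920 and 0.905 for those listed with Ltf. The levels of Lcn3 spanned 1033 to 55126 and those of Obp2a 2374 to 105890 normalized counts.

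Reg3g was closest to Serpinb11 (r = 0.962), the metalloprotease gene Adam8 (r = 0.957) and the sodium-glucose transporter family gene Slc5a9 (r = 0.957), and Scgb1c1 to Slc45a3 (r = 0.867), the airway cytochrome gene Cyp2f2 (r = 0.854) and Acss1 (r = 0.833). Without both libraries the values were 0.922, 0.910 and 0.909 for Reg3g and 0.766, 0.748 and 0.740 for Scgb1c1. Muc5b was closest to Muc5ac, the other main gel-forming airway mucin (r = 0.877), and Cd177 followed (r = 0.731). Bpifa1 was closest to Sec14l3 (r = 0.836), a lipid-transfer protein gene used here as a sustentacular marker, then to the unannotated transcripts 2810428J06Rik (r = 0.691) and Gm42819 (r = 0.686). Without both libraries Muc5ac had r = 0.863, Cd177 0.666, Sec14l3 0.817, 2810428J06Rik 0.648 and Gm42819 0.649.

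Bpifb1 had the trefoil factor gene Tff2 (r = 0.678) between Vmn1r72 (r = 0.687) and Zfp940 (r = 0.672), and Bpifb3 had Pfkfb1 (r = 0.677) and Gm7173 (r = 0.673) among its closest. Bpifb4 went with gene models of little known function, Gm42482 (r = 0.798) and a long noncoding RNA model (r = 0.793), and with Duxf3 (r = 0.777). The adjusted permutation p of these 3 genes was 0.00663, 0.00374 and 0.00543, and r was 0.759, 0.773 and 0.732 without both libraries that stood apart. Tff2, Vmn1r72, Zfp940, Pfkfb1 and Gm7173 then had r of 0.685, 0.677, 0.668, 0.655 and 0.650.

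The number of genes that covaried with a member, at an adjusted p under 0.05 and among 18381 others, was larger for Dmbt1, Ltf, Reg3g and Scgb1c1 than for the others. Ltf had 690 genes with positive and 187 with negative r, Reg3g 604 and 199, Dmbt1 538 and 161, and Scgb1c1 475 and 73. Bpifb4 had 180 and 96, Bpifa1 32 and 51, Muc5b 24 and 80, Bpifb3 13 and 17, and Bpifb1 10 and 24. These counts fell without both libraries that stood apart, to 62 and 0 for Ltf, 66 and 2 for Reg3g, 37 and 1 for Dmbt1, 6 and 0 for Scgb1c1, 13 and 1 for Bpifb4, 5 and 1 for Bpifb1, 2 and 2 for Bpifa1 and for Muc5b, and 1 and 0 for Bpifb3.

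Muc5b (chr7:141839070-141873084), the gel-forming mucin gene, overlapped between all strains. Its lowest, median and highest normalized counts were 14.9, 55.6 and 98.3 in 129 and 7.46, 66.6 and 91.3 in B6. They were 5.91, 28.3 and 194 in SJL and 15.4, 37.3 and 171 in SWR. None of the 6 pairs of strains passed, and the estimated log2 differences lay between -0.27 and 0.26, each with an SE of at least 0.48.

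The 5 BPI-fold genes lie in a cluster of 13 such genes on chromosome 2 (153875045 to 154320646, GRCm38), of which 5 passed the filter. Bpifa1 (chr2:154142880-154149219) was by far its most abundant member. It ranged from 49.2 to 449 normalized counts in 129 (median 161), from 51.2 to 555 in B6 (298), from 113 to 538 in SWR (273) and from 82.0 to 1725 in SJL (189). The strains overlapped, and no pair passed the test. The largest estimate was a log2 difference of 1.17 ± 0.54 (SE) for SJL against 129, with an adjusted p of 0.0869 by edgeR's quasi-likelihood test.

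To ask which genes depended on strain, all pairs were tested with sex as a covariate. Of the 9 tested members, 5 passed between at least 1 pair of strains, at a fold change above 2 and a Benjamini-Hochberg adjusted p under 0.05 by edgeR's quasi-likelihood test, against 19.8% of all genes tested. Between single pairs, 1 member differed between B6 and 129 (11.1% of genes tested), 4 between SJL and 129 (8.38%), 2 between SWR and 129 (7.73%) and 2 between SJL and B6 (7.99%). No member passed between SWR and B6 (8.05%) or between SWR and SJL (4.5%) by edgeR or DESeq2, with 1 member at an unadjusted p under 0.05 in each by edgeR. DESeq2 placed 3 members past the threshold in at least 1 pair, Bpifb3, Bpifb4 and Reg3g.

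Bpifb4 (chr2:153938212-153964101), a BPI-fold gene of the respiratory and olfactory mucosa, had no read in any of the 8 mice of 129, whose libraries held between 9724299 and 15272614 reads. In B6 it ranged from 0.954 to 15.3 normalized counts with a median of 6.45, and in SJL from 1.93 to 14.8 with a median of 5.68. In SWR 1 of 8 mice had no read, and the range was 0 to 8.88 around 3.46. The ranges of B6 and SJL lay wholly above 129, while that of SWR touched it at 0.

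These values rest on few reads, namely 45 in B6, 65 in SJL and 27 in SWR over 8 mice each. Against a floor of 3 reads over the 129 group, Bpifb4 was at least 16.4-fold higher in B6, at least 19.9-fold higher in SJL and at least 8.30-fold higher in SWR. The adjusted p by edgeR's quasi-likelihood test was 2.01e-05, 9.87e-06 and 8.11e-04. With no read in 129, Bpifb4 passed the filter on low counts only through the other strains. These p-values are therefore a description and no separate support for the difference from 129. All 3 differences passed under each of 39 alternative settings. Some of these settings could hardly have changed the result. A looser limit on fold change can lose no call, and omitting a mouse of another strain left both groups of a pair unchanged.

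Bpifb4 was not alone in this. Of the 13 cluster genes, 7 had no read in 129 (Bpifb2, Bpifb6, Bpifb4, Bpifa6, Bpifa2, Bpifa3 and Bpifa5), and each of the 13 had reads in B6, SJL and SWR. The other 6 of these 7 genes had between 18 and 65 reads in all. Over all genes with 100 to 200 reads in the 24 libraries of the other strains, where Bpifb4 had 137, 1.63% (33 of 2020) had no read in 129. The same share was 0.0545% for B6, 0.586% for SJL and 0.311% for SWR, each against its own 24 other libraries. No such share was computed for genes with as few reads as the other 6 cluster genes.

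Reads on genes of tissues other than the VNO also differed between strains. On 235 genes of such families (among them keratin-associated proteins, Paneth cell defensins, milk caseins and protamines), libraries of 129 held 0.383 to 2.05 rpm, a rate relative to the library's total reads, with a median of 0.599. The medians were 7.34 in B6 (1.37 to 32.0), 5.06 in SJL (2.39 to 10.7) and 4.18 in SWR (0.446 to 15.3). Within strains, Bpifb4 had r = 0.607 and rho = 0.505 with this background over 32 mice (permutation p = 0.00269 and 0.00796, adjusted 0.0807 and 0.133 over 30 relations), and r = 0.746 without the 2 farthest libraries. With the background as an added term, chosen after seeing the data, the fitted log2 differences of Bpifb4 went from 5.75 to 3.72 in B6, from 5.97 to 4.33 in SJL and from 4.75 to 3.36 in SWR, and all 3 still passed by edgeR's quasi-likelihood test (adjusted p = 0.0114, 0.002 and 0.0126). These fitted values depend on how edgeR treats counts of 0 and are no bound.

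**Figure D4:**
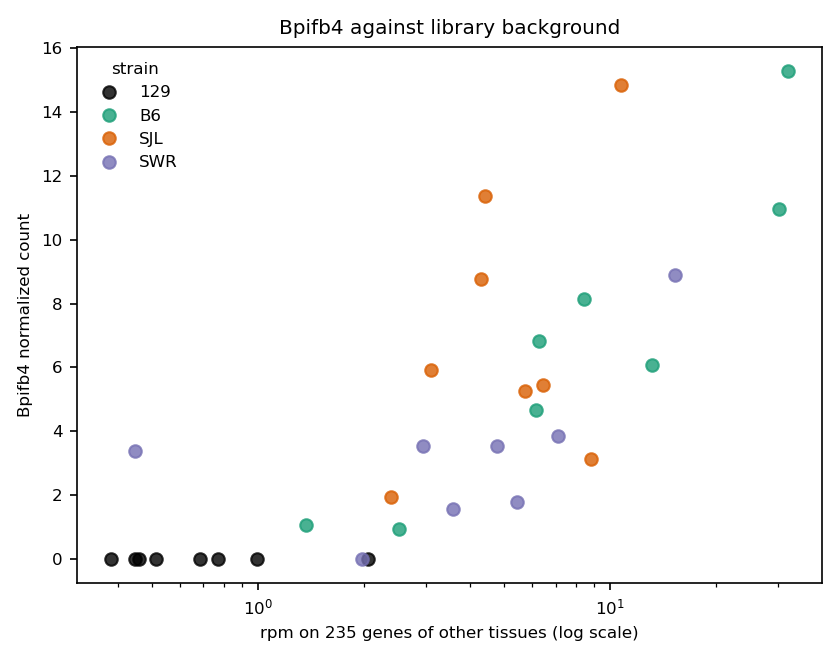
Normalized count of Bpifb4 in each of 32 libraries (vertical) against rpm on 235 genes of other tissues (horizontal, log scale), coloured by strain. All 8 libraries of 129 lie at 0 for Bpifb4, and their background, at most 2.05 rpm, lies at the low end of the range.

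Bpifb3 (chr2:153918230-153932996), its neighbour, was higher in SJL than in 129. Its counts were low: 129 ranged from 0 to 2.33 normalized counts, with 5 of 8 mice at 0, and B6 from 0 to 12.5, with 4 mice at 0. SJL ranged from 0.985 to 34.4 around a median of 3.87, and SWR from 0 to 17.7 around 3.20. Bpifb3 too passed the filter on low counts only through strains other than 129. The log2 difference of SJL against 129 was 3.28 ± 0.99 (SE; adjusted p = 0.00835, edgeR's quasi-likelihood test), with overlapping ranges and 66 reads against 6 in all.

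This difference of Bpifb3 was 0.99 ± 1.30 with the library background as an added term (adjusted p = 0.63 by edgeR's quasi-likelihood test) and thus no longer passed. Without SJL male replicate 4, the highest of all mice, it was 2.40 (adjusted p = 0.0471 by the same edgeR test).

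Bpifb1 (chr2:154190818-154220369), a BPI-fold gene of airway goblet cells and glands, was lower in SJL and SWR than in 129. It ranged from 5.33 to 91.7 normalized counts in 129 (median 8.73) and from 3.20 to 39.1 in B6 (median 10.3). SJL ranged from 1.05 to 29.2 (median 3.35) and SWR from 0.886 to 10.1 (median 4.92), so that all strains overlapped. The log2 difference from 129 was -1.52 ± 0.60 (SE) in SJL and -1.54 ± 0.60 in SWR, with adjusted p of 0.0413 and 0.038 by edgeR's quasi-likelihood test.

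Both differences of Bpifb1 were most changed by 129 male replicate 3, which stood at 91.7 while the next mouse of 129 stood at 14. Without it they were -0.55 and -0.61 (adjusted p = 0.461 and 0.393 by edgeR's quasi-likelihood test). The first also missed the threshold without 129 female replicate 1, SJL female replicates 2, 3 or 4, or SJL male replicates 1, 2 or 3, at -1.54 to -1.28, and the second without SWR female replicates 1 or 3 or any SWR male, at -1.58 to -1.29. DESeq2 gave adjusted p of 0.0534 and 0.0613. With the replicate block (the replicate number as a term) they were -1.39 and -1.43, with adjusted p of 0.0791 and 0.067 by edgeR.

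Bpifb5 (chr2:154223742-154240902) was not tested. It had 54 reads over all mice, with a highest value of 8.78 normalized counts in B6, and its medians were 1.10 in 129, 1.95 in B6, 1.48 in SWR and 0.767 in SJL.

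Reg3g was lower in SJL than in B6, by a log2 difference of -2.62 ± 0.80 (SE; adjusted p = 0.00744, edgeR's quasi-likelihood test), and lower than in 129 by -2.06 ± 0.80 (adjusted p = 0.0396 by the same edgeR test). Both were most changed by single mice. Without both libraries that stood apart they were -1.03 and -0.61 (adjusted p = 0.0585 and 0.298 by edgeR). Without B6 female replicate 1 the first was -0.96 (adjusted p = 0.213, edgeR), and without 129 male replicate 1 the second was -0.59 (adjusted p = 0.512, edgeR). The second also missed the threshold without SJL female replicates 3 or 4 or SJL male replicates 1, 2 or 3, at -2.0 to -1.88. With the replicate block the second was -1.40 with an adjusted p of 0.127 by edgeR, and with the library background as a term it was -1.81 with an adjusted p of 0.156.

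Scgb1c1 was lower in SJL than in B6, by a log2 difference of -1.34 ± 0.54 (SE; adjusted p = 0.0428, edgeR's quasi-likelihood test). Without B6 female replicate 1 it was -0.75 (adjusted p = 0.239, edgeR). It also missed the threshold without B6 male replicate 3, SJL female replicates 2, 3 or 4, or SJL male replicates 2 or 3, at -1.37 to -1.16, and DESeq2 gave an adjusted p of 0.06.

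Leaving out both libraries that stood apart also brought differences past the threshold that the full set did not show. Ltf was then higher in SWR than in B6 by 1.37 ± 0.43 (SE, log2; adjusted p = 0.0102, edgeR's quasi-likelihood test). Scgb1c1 was higher in SWR than in 129 by 1.17 ± 0.41 (adjusted p = 0.0187, edgeR) and than in SJL by 1.02 ± 0.38 (adjusted p = 0.0337, edgeR). Bpifb4 was lower in SWR than in SJL by a log2 difference of -1.24 ± 0.46 (adjusted p = 0.0387, edgeR). With all libraries the same 4 values were 0.24, 0.32, 1.02 and -1.22, with adjusted p of 0.793, 0.661, 0.153 and 0.0631 by edgeR.

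**Figure D5:**
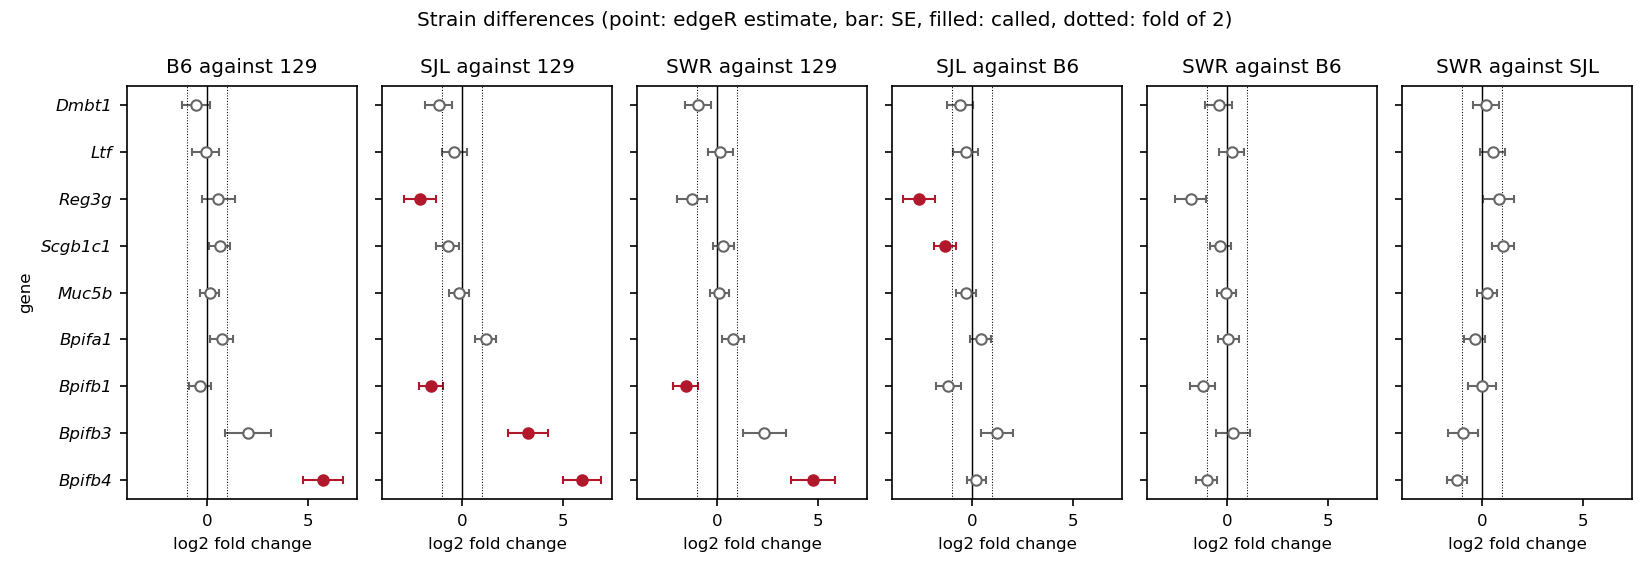
Estimated log2 fold change of each of the 9 tested genes between each pair of strains, with bars of 1 SE; filled red points passed a fold change above 2 and an adjusted p under 0.05 by edgeR, and dotted lines mark a fold of 2. Bpifb4 lies at 4.75 to 5.97 in the 3 comparisons with 129 and near 0 or below in the others, while Ltf, Dmbt1, Muc5b and Bpifa1 have no filled point.

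Between males and females, 0 of the 9 tested genes passed at a fold change above 2 and an adjusted p under 0.01, where 0.0381% of all genes tested passed. Bpifb1 alone had an unadjusted p under 0.05 by edgeR's quasi-likelihood test, with a log2 difference of males from females of 1.09 ± 0.43 (SE; adjusted p = 0.426), and DESeq2 placed 0 past the threshold. Within single strains 0 members passed at an adjusted p under 0.05 by edgeR or DESeq2, against 0.0381% of genes tested in 129, 0.0544% in B6, 0.0816% in SWR and 0.0544% in SJL. In B6, Reg3g, Ltf and Dmbt1 had unadjusted p under 0.05 by edgeR.

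Those 3 genes held the high mouse among the females of B6. Reg3g ranged from 330 to 17464 normalized counts in the 4 females and from 539 to 1346 in the 4 males, and Ltf from 2371 to 53986 and from 2107 to 8421. The log2 difference of males from females was -2.55 ± 0.97 (SE) for Reg3g and -2.05 ± 0.83 for Ltf, with adjusted p of 0.461 and 0.484 by edgeR's quasi-likelihood test. Without both libraries that stood apart it was -0.18 for Reg3g. In 129, Bpifb1 and Scgb1c1 had an unadjusted p under 0.05 by edgeR, with 2.03 ± 0.76 and 1.67 ± 0.75 (adjusted p = 0.504 and 0.58 by edgeR). Without both libraries that stood apart the difference of Scgb1c1 was 0.30. That of Bpifb1, whose highest mouse was 129 male replicate 3 at 91.7, was then 2.28.

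The interaction of sex and strain passed for 0 of the 9 genes (0.0163% of genes tested) by edgeR and by DESeq2. Reg3g alone had an unadjusted p under 0.05 by edgeR's quasi-likelihood test (adjusted p = 0.492). Leaving the filter on low counts out placed Dmbt1, Ltf and Reg3g past the threshold both within B6 and for the interaction. In that setting 136 of 44957 genes passed within B6 and 428 for the interaction, against 10 and 3 of 18382 with the filter.

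Other genes of mucosal defence differed between strains at shares that can be read against the 19.8% of all genes tested. Of 20 genes for mucins and mucus assembly, 13 were tested and 8 passed in at least 1 pair. The largest was the gland mucin gene Muc6, higher in B6 than in 129 by 4.12 ± 0.85 (SE, log2). The glycosyltransferase gene Gcnt3 and the membrane mucin gene Muc13 were lower in SWR than in 129, by -3.04 ± 0.65 and -2.71 ± 0.80. Between B6 and 129, 4 of the 13 were higher and 1 lower (8.72% and 2.4% of genes tested), with a median log2 difference of 0.77 against 0.02 for all genes tested.

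Of 27 antimicrobial and immune-exclusion genes, 13 were tested and 9 passed in at least 1 pair. Duox2, a hydrogen-peroxide-producing oxidase gene, was higher in B6 than in 129 by 4.94 ± 1.0 (SE, log2). Pglyrp1, which binds bacterial cell walls, was lower in SJL than in 129 by -3.17 ± 0.24, and the defensin gene Defb1 lower in SJL than in B6 by -2.79 ± 0.47. Between SJL and B6, 0 of the 13 were higher and 5 lower by edgeR (2.67% and 5.33% of genes tested), with a median log2 difference of -0.73, while the 9 members had a median of -0.31.

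Of 12 other BPI-fold and related genes, 4 were tested and 3 passed in at least 1 pair. Bpifb9b, in the same cluster, was lower in SJL than in B6 by -3.82 ± 0.98 (SE, log2), and the lipopolysaccharide-binding protein gene Lbp was higher there by 2.27 ± 0.18. Bpifc was higher in B6 than in 129 by 1.26 ± 0.53. None of the 13 other secretoglobin genes passed the filter on low counts, so that Scgb1c1 was the tested secretoglobin. Of 15 gland markers, 13 were tested and 6 passed, led by Dcpp3, lower in SJL than in B6 by -5.99 ± 0.75, Pip, lower in SJL than in 129 by -2.68 ± 0.86, and Elf5, lower in SJL than in B6 by -2.38 ± 0.32. The part of gland cells in the values of the secretory genes was not tested.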

How the data were processed

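RNA of the VNO epithelium was measured in 32 individual mice, 4 of each sex in each of 4 strains. As the authors describe it, ribodepleted total RNA was made into stranded libraries, and reads were trimmed with Trim Galore, aligned with STAR to the mm10 (GRCm38) genome and counted per gene. The deposited counts are raw reads per gene without normalization. The second deposited table holds a signal that the authors scaled with DESeq2 size factors, called the normalized count here.

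Groups came from the strain and sex labels, and every library was used. Replicates are separate mice. Counts were tested with edgeR 4.0.16 (TMM, filterByExpr, quasi-likelihood F test) in R 4.3.3, with sex as covariate between strains, strain as covariate between sexes, and a model of the 8 group means for sexes within strains and the interaction. P-values were adjusted by Benjamini-Hochberg over all 18382 genes tested. The SE of a log2 fold change was taken as its size divided by the square root of F. Correlations used a pseudocount of 1 and numpy 2.4.6. TPM was computed from the deposited counts and GENCODE M21 exon lengths, found for 49412 genes. Scripts were tested on simulated data.

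The members and gene lists were chosen with earlier results of these data known. All members are named; of each other list, the 3 genes with the largest fold change among those that passed between strains; per member, the 3 genes with the highest r, of which some are not reported here; and the BPI-fold genes of the cluster. Alternatives were DESeq2 1.42.0 (Wald test and size factors), no filter on low counts, a block for replicate number, a fold change of 1.5, omission of each library, omission of both libraries that stood apart and, added after seeing the data, library background as a term and closest genes and covarying genes without both libraries. Reads of near-identical family members may be left uncounted where they map to several places. The number of reads limits precision for Bpifb1, Bpifb3, Bpifb4 and Bpifb5, and the floor of 3 reads covers counting error only.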

Additional observations from a re-analysis of the deposited data

Results flagged for a closer look

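In 39 groups of 8 mice (a gene in a strain), the gap between the most extreme mouse and its nearest neighbour was set against the whole range, with Dixon's critical value at 95% as the limit. For independent groups of normally distributed values, chance exceeds this limit in about 1 in 20. Normalized counts were skewed to high values and the same mice recur over genes that moved together, so that share is no measure here. Of the 39 groups, 18 exceeded the limit, each time at the high end. In B6 female replicate 1 these were Dmbt1 at 95640 normalized counts, Reg3g at 17464 and Ltf at 53986. In 129 male replicate 1 they were Dmbt1 at 97609, Reg3g at 9468, Ltf at 39159 and Scgb1c1 at 171. SJL female replicate 1 exceeded it for Dmbt1 at 40693 and Ltf at 24461. In SJL male replicate 4 they were Bpifa1 at 1725, Bpifb1 at 29.2, Bpifb3 at 34.4, Bpifb5 at 5.22 and Muc5b at 194. The remaining values were Bpifb1 at 91.7 in 129 male replicate 3 and at 39.1 in B6 male replicate 1, Bpifb3 at 17.7 in SWR female replicate 3, and Bpifb4 at 8.88 in SWR female replicate 2.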

How the results depend on the processing

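Of the 9 strain differences of single genes, none reversed under 39 alternatives, and the 3 of Bpifb4 passed under all of them. These alternatives include a looser limit on fold change, which can lose no call. They also include omissions of mice from strains outside the pair compared. Members that passed between SJL and 129 (4) numbered 2 with the replicate block and 2 with library background as a term, which was chosen after seeing the data. Over all genes, 1508 and 1262 of 18382 passed in these settings. Members between SWR and 129 (2) numbered 1 by DESeq2 and 1 with the replicate block, where 2356 of 44957 and 1390 of 18382 genes passed. Those between SJL and B6 (2) numbered 1 by DESeq2 and 0 without B6 female replicate 1 and 129 male replicate 1 together. Over all genes, 1998 of 44957 and 1638 of 18693 passed there. Without these 2 libraries 1 passed between SWR and B6 and 2 between SWR and SJL, where the full set gave 0. In that setting 1645 and 873 of all 18693 genes tested passed. Then 6 rather than 9 pairs of members reached the unadjusted p that passed in the full set. When the permutation p-values were adjusted anew, 2 pairs passed. Without the filter on low counts 1 passed between SWR and B6, 3 between the sexes within B6 and 3 for the interaction. Over all genes 2845, 136 and 428 of 44957 passed in these comparisons without it, and 1480, 10 and 3 of 18382 with it. DESeq2 gave 3 members in at least 1 pair of strains in place of 5. The cause was not tested. Omission of single libraries gave 1 to 3 members for B6 against 129 (3 without 129 male replicate 1), 2 to 5 for SJL against 129, 1 to 3 for SWR against 129, 0 to 3 for SJL against B6 (0 without B6 female replicate 1), 0 to 1 for SWR against B6, 0 to 1 for SWR against SJL, 4 to 6 in at least 1 pair, 0 for sex in every form, and 8 to 11 correlated pairs. Members that came past the threshold in a further pair with 1 library left out were Reg3g and Scgb1c1 (B6 against 129, without 129 male replicate 1), Dmbt1 (B6 against 129 without B6 female replicate 1, SJL against 129 without SJL female replicate 1), Bpifa1 (SJL against 129, without 129 male replicate 4 or SJL male replicate 2), Bpifb3 (SJL against B6 without B6 male replicate 3, SWR against 129 without SJL male replicate 4), Bpifb1 (SJL against B6, without SJL male replicate 4), Scgb1c1 (SWR against 129, without 129 male replicate 1), Ltf (SWR against B6, without B6 female replicate 1), Reg3g (SWR against B6, without 129 male replicate 1, B6 female replicate 2, or B6 male replicate 1 or 3) and Bpifb4 (SWR against SJL, without B6 female replicate 1, SJL female replicate 2 or SWR female replicate 2). Replicate numbers were read as lanes, which no label states: same-numbered libraries of different groups had a mean correlation of deviations of -0.0028 (112 pairs, 22 over 0.1), and 5 of 32 libraries correlated best with their own number. With the replicate block 4 members passed in at least 1 pair and 10 pairs of members were correlated. Read depth limits the low BPI-fold genes: Bpifb3 had 6 reads and Bpifb4 0 in 129.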
